A study of Rattus norvegicus with 12 samples.

Results

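The cell cycle and DNA replication genes described here are 44 named genes that drive or restrain the division of a cell. They were chosen by name and by known role, with earlier results of these data known, and were read in uterine RNA from ovariectomized rats. They form 3 sets. The first holds 13 regulators of G1, the phase in which a cell commits to divide or to stop. The second holds 11 genes of S phase, in which DNA is copied. The third holds 20 genes of G2 and mitosis, in which the copied chromosomes are separated. Of the 44 genes, 38 were found among the 16493 genes of the deposited files, and Mki67, Ccnd3, Tk1, Bub1b, Birc5 and Ect2 are not analysed here. The level of 31 genes was high enough to test. Ccne1, Top2a, Aurkb, Plk1, Bub1, Kif11 and Nusap1 were too low.

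A cell in G1 is pushed on by D-type cyclins with their partner kinases Cdk4 and Cdk6 and then by E-type cyclins with Cdk2, which free the E2F factors to switch on the genes of DNA copying. Inhibitor proteins of the Cip/Kip and Ink4 families bind these kinases and hold the cell back. Cdk1 with cyclins A and B then drives entry into mitosis, and estrogen is known as the main signal for division of the uterine epithelium in rodents.

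All rats were female Sprague-Dawley, had lost their ovaries on postnatal day 50 and, by the labels, were 65 days old at collection. The CAS group ate a purified diet with casein, a milk protein, and the SPI group ate the same diet with soy protein isolate, which carries isoflavones. On the same diets, rats of the groups CAS-E2 and SPI-E2 were infused with 17β-estradiol (E2), the main ovarian estrogen, at 5 μg/kg/d from an implanted minipump, while CAS and SPI rats received the vehicle. By the methods of the study the diets began on postnatal day 30, but another passage of it gives a shorter feeding period. Each group had 3 libraries, each a pool of equal RNA from 2 whole uteri, so errors are between pools. Whole uterus holds epithelium, stroma, muscle, vessels and blood cells, so fewer dividing cells and less RNA per cell cannot be told apart. Libraries of a group were sequenced together, and so lane and group cannot be told apart either.

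Levels are FPKM, the fragments per kilobase of transcript scaled to the mapped reads of the library, as the authors' program Cufflinks gave them. Each library rested on 6353210 to 9862180 mapped reads, as implied by the deposited coverage, of which 22.0% to 32.5% fell on annotated transcripts. One library stood apart: the root mean square log2 distance of SPI-E2 1 from the other libraries of its group was 0.644, against 0.318 to 0.527 for the other 11. Markers of epithelium, muscle and stroma were all present in every library. Ovary markers summed to no more than 5.42 FPKM in any library, and 6 of 8 were under 1 FPKM in all 12. Liver markers, with no place in a uterus, summed to 1593 FPKM in SPI 1 and to 12.9 to 315 FPKM in the other libraries.

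Differences were tested with limma on log2(FPKM + 1) over 10279 genes, in 1 fit of all 12 libraries. A gene counted as called where its p, adjusted by Benjamini-Hochberg, was under 0.05 and its change at least 2-fold. Every log2 fold change below is of FPKM + 1, so that changes at a low level come out smaller than they are. This matters here, since 11 of the 38 genes stayed under 2 FPKM in all 12 libraries. The values of a group are given in the order of its replicates, 1 to 3.

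Under E2 a few members of each set were called higher, and the members called lower all belonged to the G1 set. On the scale of log2(FPKM + 1) the changes of Cdkn1a and Cdk1 were the largest of the calls. As plain ratios of mean FPKM the called genes had another order: in casein-fed rats Rrm2 was at 16.3 times its CAS mean, Cdk1 at 7.48 times and Cdkn1a at 7.01 times, and in soy-fed rats Cdkn1a was at 9.6 times its SPI mean, Cdkn2b at 8.06 times, Cdk1 at 6.85 times and Rrm2 at 6.64 times. In casein-fed rats, 5 of the 31 tested genes were called higher (7.99% of all genes tested were) and 3 lower (6.37% of all). The 5 were Cdkn1a, Cdkn2b, Rrm2, Cdk1 and Ccnb1, and the 3 were Ccnd2, Cdkn1b and Cdkn1c. In soy-fed rats, 7 were called higher (8.39% of all) and 1 lower (1.86% of all). These were Ccnd1, Cdkn1a, Cdkn2b, Mcm6, Rrm2, Cdk1 and Ube2c, with Cdkn1c lower. With the E2 effect averaged over the diets, 6 were higher (7.76% of all) and 2 lower (3.37% of all), namely Cdkn1a, Cdkn2b, Rrm2, Cdk1, Cks2 and Ube2c, and Cdkn1b and Cdkn1c. The E2 libraries all lay above the others for 15 of the 31 and below for 7 in casein-fed rats (23.9% and 31.2% of all genes), and for 17 and 1 in soy-fed rats (30.1% and 11.2%). Where the fold cutoff was left out, the averaged effect called 18 members higher, against 27.4% of all genes, and 6 lower, against 23% of all genes. By the same rule 14 were higher and 6 lower in casein-fed rats (17.1% and 22% of all), and 15 and 2 in soy-fed rats (21.1% and 6.57% of all). Over both diets together, all 6 E2 libraries lay above the other 6 for 12 members and below for 1 (17.8% and 8.33% of all genes). Of the tested members, 9 reached 1 FPKM in no library without E2, so they were tested only through their level in E2 libraries and had to differ. They were E2f1, Cdkn2b, Mcm5, Rrm2, Ccna2, Ccnb1, Ccnb2, Mad2l1 and Prc1. Mcm3, Cks2, Ube2c and Ccne2 reached 1 FPKM in fewer than 3 libraries without E2, so they too passed the filter only with the help of E2 libraries. Counts over the tested members are therefore a description of them, and the fit without a filter was used to describe the sets.

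**Figure D1:**
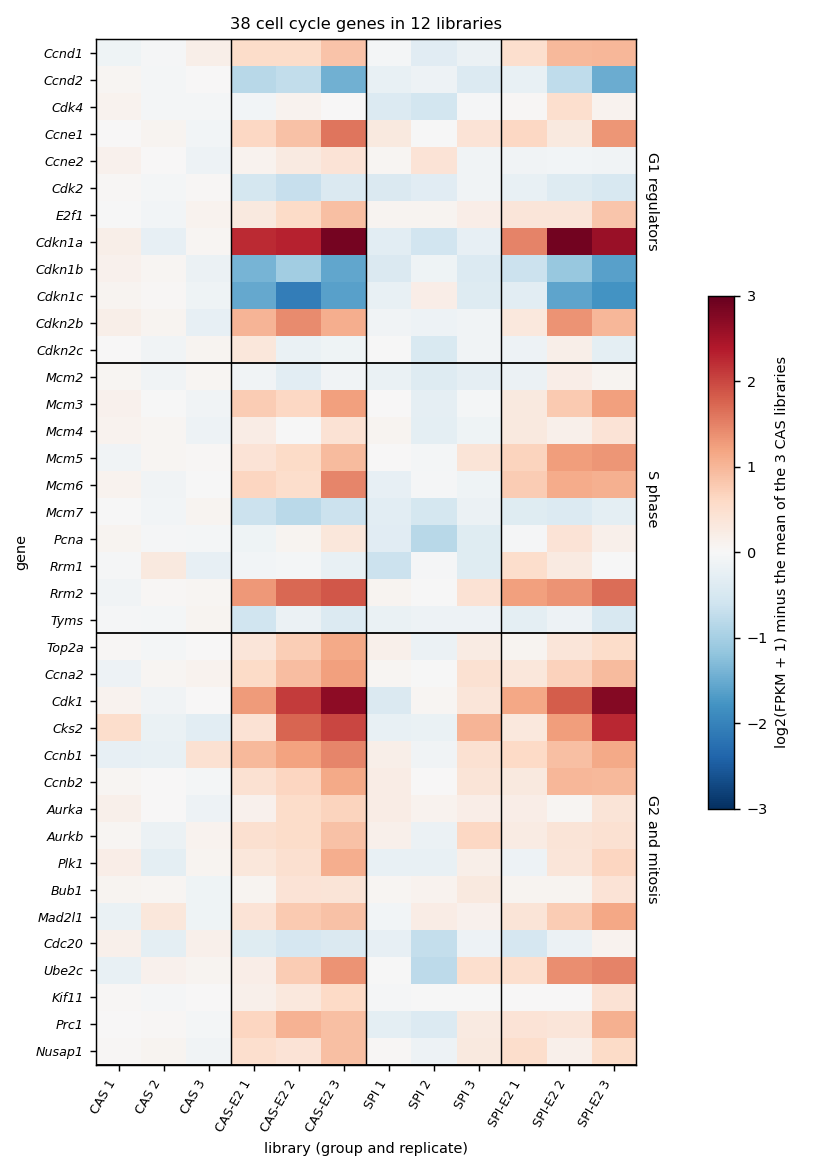
Each row is 1 of the 38 genes and each column 1 of the 12 libraries, with the 3 sets and 4 groups divided by lines. Colour is log2(FPKM + 1) minus the mean of the 3 CAS libraries, from -3 (blue) to 3 (red). Cdkn1a and Cdk1 are the reddest rows under E2, Cdkn1b and Cdkn1c the bluest, and most rows of G2 and mitosis are redder in CAS-E2 3 and SPI-E2 3 than in the other libraries of their groups.

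The sets were described over all 38 genes found, in a fit with no filter on low values (13860 genes). The median log2 fold change of E2 averaged over the diets was 0.16 for the 12 G1 regulators, 0.35 for the 10 S phase genes and 0.58 for the 16 genes of G2 and mitosis, against -0.01 over all genes. In casein-fed rats the medians were 0.14, 0.16 and 0.72, with -0.03 over all genes. In soy-fed rats they were 0.25, 0.65 and 0.43, with 0.02 over all genes. The place of G2 and mitosis in soy-fed rats depended on the filter, on a scale that shrinks changes at a low level. In the main fit, with its filter, the medians were 0.11, 0.65 and 0.69 in soy-fed and 0.01, 0.16 and 0.82 in casein-fed rats, the same order in both. A different order of the sets in the diets was therefore not shown. A higher value under E2 was found for 15 of the 16 genes of G2 and mitosis in casein-fed rats and 16 in soy-fed rats, for 6 and 8 of the 10 S phase genes, and for 8 and 7 of the 12 G1 regulators. In the main fit, with its filter, 4686 of 10279 genes were higher in casein-fed and 6067 in soy-fed rats. The difference between sets was not tested.

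**Figure D2:**
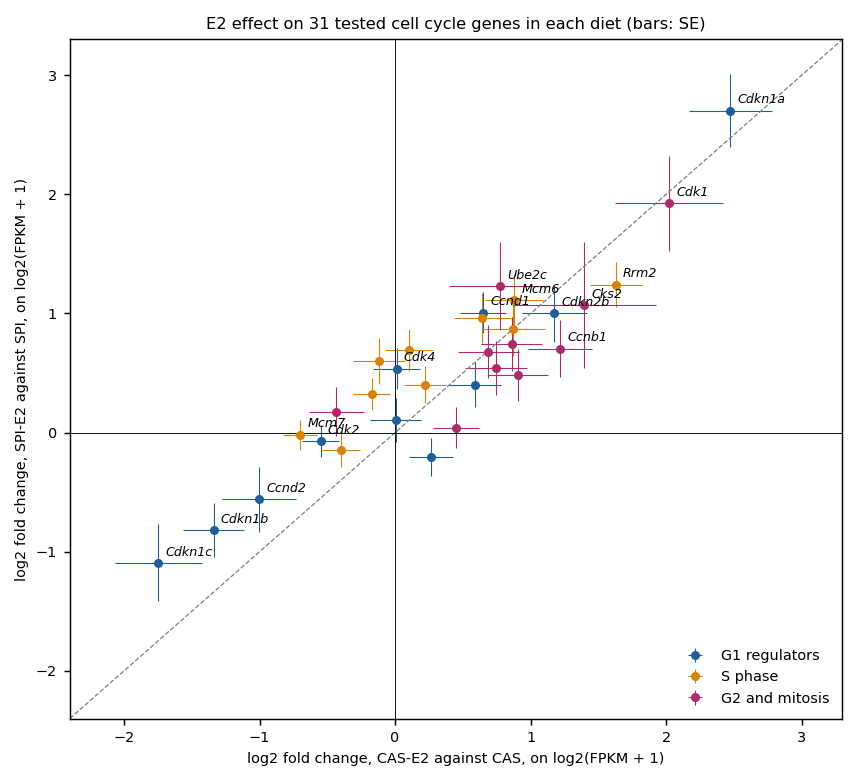
Each point is 1 of the 31 tested genes, with its E2 effect in casein-fed rats on the horizontal axis and in soy-fed rats on the vertical axis, both as log2 fold change of FPKM + 1. Bars are standard errors, the dashed line marks equal effects, and Cdkn1a (2.47 and 2.70) and Cdk1 (2.02 and 1.93) lie farthest up it, while Cdkn1c (-1.75 and -1.09) lies lowest.

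Among the G1 regulators, 4 of the 5 inhibitors were called in the averaged effect of E2, and in opposite directions. Cdkn1a and Cdkn2b were called higher (7.76% of all genes tested were), and Cdkn1b and Cdkn1c lower (3.37% of all). Cdkn1a encodes p21, an inhibitor of cyclin-dependent kinases that p53 and other signals induce (in the rn4 build of the files, chr20:7376325-7386778, plus strand, 4 exons). Its level was 3.87, 2.62 and 3.49 FPKM for CAS, 19.3, 20.2 and 30.4 for CAS-E2, 2.45, 1.89 and 2.61 for SPI and 11.1, 30.8 and 24.8 for SPI-E2. Every E2 library was above every library without E2, and SPI-E2 1 was the lowest of the 6 E2 libraries. The log2 fold change was 2.47 (SE 0.31, adjusted p = 0.000262) in casein-fed rats and 2.70 (SE 0.31, adjusted p = 0.000246) in soy-fed rats, the largest rise among the tested members on this scale in either diet. The reads implied by the files for Cdkn1a, summed over the 3 libraries of a group, were 144 for CAS, 994 for CAS-E2, 116 for SPI and 1032 for SPI-E2.

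Cdkn2b, the Ink4 inhibitor p15 that binds Cdk4 and Cdk6, was 0.457, 0.353 and 0.0764 FPKM for CAS, 1.6, 2.44 and 1.72 for CAS-E2, 0.192, 0.153 and 0.201 for SPI and 0.589, 2.26 and 1.55 for SPI-E2. It stayed under 0.5 FPKM in every library without E2, and all E2 libraries lay above those. It rose by 1.17 (SE 0.24, adjusted p = 0.00337) on the log2 scale in casein-fed rats and by 1.0 (SE 0.24, adjusted p = 0.0108) in soy-fed rats. The call in soy-fed rats ended under 5 of 23 alternatives, median-ratio scaling of the libraries among them.

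Cdkn1b encodes p27, the Cip/Kip inhibitor that is high in resting cells (chr4:171841705-171846506, plus strand, 4 exons). It was 25.6, 24.3 and 20.4 FPKM for CAS, 8.24, 10.7 and 7.22 for CAS-E2, 17.1, 21.2 and 17.4 for SPI and 14.5, 10.1 and 6.84 for SPI-E2. All E2 libraries were below all libraries without E2, with SPI-E2 1 nearest to them. The log2 fold change was -1.34 (SE 0.23, adjusted p = 0.00136) in casein-fed rats, and in soy-fed rats it was -0.82 (SE 0.23, adjusted p = 0.0215), short of the fold cutoff. Cdkn1c, or p57, the third Cip/Kip inhibitor, was 12.1, 11.6 and 10.2 FPKM for CAS, 3.26, 1.91 and 2.94 for CAS-E2, 9.51, 13 and 8.31 for SPI and 8.82, 3.07 and 2.54 for SPI-E2. In soy-fed rats the groups overlapped, since SPI-E2 1 was above SPI 3. Cdkn1c was called lower in both diets, with log2 fold changes of -1.75 (SE 0.32, adjusted p = 0.00201) and -1.09 (SE 0.32, adjusted p = 0.0273). The call in soy-fed rats ended under 5 of 23 alternatives, namely with only the groups of the comparison fitted and without SPI 1, SPI 2, SPI-E2 2 or SPI-E2 3.

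The 3 Cip/Kip members thus did not move as one: p21 was higher under E2 and p27 and p57 were lower. Cdkn2c, or p18 of the Ink4 family, was between 1.79 and 3.81 FPKM in all 12 libraries. Averaged over the diets, E2 moved it by 0.05 (SE 0.13, adjusted p = 0.748) on the log2 scale, with a 95% interval of -0.23 to 0.34.

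The D-type cyclins also split. Ccnd1, cyclin D1, was 11.7, 12.4 and 14.5 FPKM for CAS, 19.3, 19.1 and 24.1 for CAS-E2, 12.4, 9.97 and 11.2 for SPI and 18.5, 26 and 26.7 for SPI-E2. Each E2 library was above every library without E2. The rise was called in soy-fed rats, at 1.01 (SE 0.17, adjusted p = 0.00199), and in casein-fed rats the log2 fold change was 0.65 (SE 0.17, adjusted p = 0.0107), under the cutoff of 1. The call of Ccnd1 ended under 6 of 23 alternatives: median-ratio scaling, both limma-voom fits, and without SPI 2, SPI-E2 2 or SPI-E2 3. Ccnd2, cyclin D2, was 34.5, 31.9 and 33.4 FPKM for CAS, 18.3, 19.4 and 11.7 for CAS-E2, 28.1, 29.8 and 24.7 for SPI and 28.4, 19.1 and 11.2 for SPI-E2. It was called lower in casein-fed rats, at -1.0 (SE 0.28, adjusted p = 0.014), but in soy-fed rats SPI-E2 1 lay within the SPI libraries and the log2 fold change was -0.56 (SE 0.28, adjusted p = 0.146).

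Cdk4, the kinase partner of the D-type cyclins, had the highest level of all members and made up 31% of the summed FPKM of the G1 set. It was 42.4, 37.7 and 37.3 FPKM for CAS, 36.8, 42 and 39.6 for CAS-E2, 29.3, 26.2 and 38.3 for SPI and 39.9, 55.5 and 41.9 for SPI-E2. The casein groups overlapped. In soy-fed rats all 3 E2 libraries were above the SPI libraries, by a margin that was small beside the spread within SPI. The log2 fold change was 0.01 (SE 0.17, adjusted p = 0.963) in casein-fed rats, with a 95% interval of -0.36 to 0.39, and 0.54 (SE 0.17, adjusted p = 0.0375) in soy-fed rats. Cdk2, the kinase partner of the E-type cyclins, was 4.86, 4.48 and 4.82 FPKM for CAS, 2.97, 2.53 and 3.26 for CAS-E2, 3.24, 3.48 and 4.31 for SPI and 3.86, 3.41 and 3.07 for SPI-E2. In casein-fed rats all E2 libraries were below the CAS libraries, with a change of -0.55 (SE 0.13, adjusted p = 0.00804) on the log2 scale. In soy-fed rats the groups overlapped and it was -0.07 (SE 0.13, adjusted p = 0.724).

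Ccne1, cyclin E1, was too low to test in the main model, at a mean of 0.0651 ± 0.0598 FPKM (SD, n = 3) in CAS and 1.27 ± 0.838 in CAS-E2, and was listed at 0 in CAS 3. Its means were 0.262 ± 0.183 in SPI and 0.869 ± 0.725 in SPI-E2. E2f1, a factor that switches on the genes of S phase, had means of 0.465 ± 0.105 for CAS, 1.24 ± 0.485 for CAS-E2, 0.592 ± 0.0747 for SPI and 1.13 ± 0.423 for SPI-E2. In the averaged effect it stood at 0.50 (SE 0.13, adjusted p = 0.00923) on the log2 scale, under the fold cutoff. Ccne2, cyclin E2, stayed between 0.643 and 1.42 FPKM in all libraries.

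**Figure D3:**
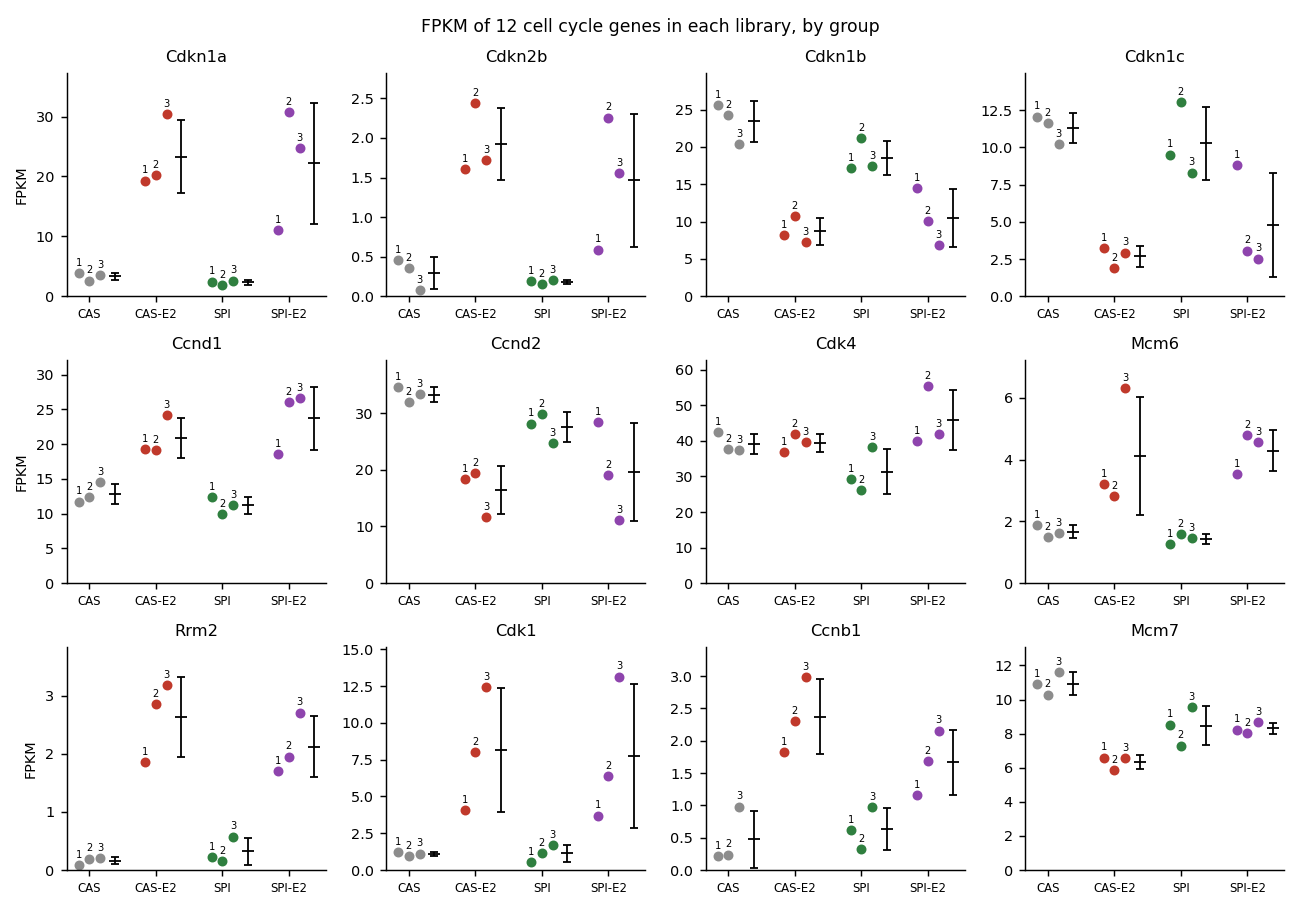
Points are the FPKM of 12 genes in each of the 3 libraries of a group, numbered by replicate, and black bars are the group mean with the SD. Cdkn1a, Cdkn2b, Rrm2, Cdk1 and Ccnb1 lie higher in all E2 libraries than in all libraries without E2, Cdkn1b lies lower, and SPI-E2 1 lies within the range of the SPI libraries for Cdkn1c and Ccnd2.

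Of the 10 S phase genes tested, Rrm2 alone was called in the averaged effect of E2, where 7.76% of all genes tested were called higher and 3.37% lower. By adjusted p alone, 6 of the 10 were higher and 2 lower (27.4% and 23% of all genes). The levels of the 10 genes found summed to 46.3, 44.8 and 43.7 FPKM for CAS, 42.8, 44.8 and 55.8 for CAS-E2, 35.3, 31 and 37.3 for SPI and 49, 57.8 and 55.2 for SPI-E2. The casein groups overlapped and the soy groups did not. Pcna alone made up 34.2% of this sum over the 12 libraries.

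Rrm2, the regulated subunit of ribonucleotide reductase, which makes the deoxynucleotides for DNA copying (chr6:42350541-42359313, plus strand, 9 exons), changed most. It was 0.0864, 0.195 and 0.202 FPKM for CAS, 1.86, 2.86 and 3.19 for CAS-E2, 0.226, 0.158 and 0.576 for SPI and 1.7, 1.95 and 2.71 for SPI-E2. No library without E2 reached 1 FPKM, and no E2 library was under 1.7 FPKM. The log2 fold change was 1.63 (SE 0.19, adjusted p = 0.000214) in casein-fed rats and 1.24 (SE 0.19, adjusted p = 0.00138) in soy-fed rats, and the implied reads summed to 10, 155, 22 and 128 for CAS, CAS-E2, SPI and SPI-E2. Rrm1, the large subunit of the same enzyme, had means of 5.64 ± 1.24, 5.05 ± 0.406, 4.24 ± 1.08 and 6.92 ± 1.45 FPKM in that order. In the averaged effect of E2 it stood at 0.24 (SE 0.14, adjusted p = 0.164), with a 95% interval of -0.06 to 0.54. The Rrm1 level rests on an annotated transcript of only 652 bases and 5 exons, against 2537 bases for Rrm2. Its implied reads summed to 351 over the 12 libraries.

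The 6 Mcm genes encode the subunits of 1 ring, the Mcm2-7 helicase that opens the DNA ahead of the polymerases, but their levels did not change together. Mcm6 was 1.89, 1.5 and 1.63 FPKM for CAS, 3.2, 2.83 and 6.31 for CAS-E2, 1.26, 1.59 and 1.45 for SPI and 3.53, 4.78 and 4.56 for SPI-E2. The E2 libraries of each diet were above the other libraries of that diet. It was called in soy-fed rats, at 1.11 (SE 0.21, adjusted p = 0.00394) on the log2 scale, with 0.88 (SE 0.21, adjusted p = 0.00803) in casein-fed rats, short of the fold cutoff.

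Mcm5 was 0.404, 0.566 and 0.541 FPKM for CAS, 1, 1.22 and 1.9 for CAS-E2, 0.509, 0.451 and 0.977 for SPI and 1.39, 2.56 and 2.75 for SPI-E2. All E2 libraries were above all libraries without E2, and the log2 fold changes of 0.64 (SE 0.21, adjusted p = 0.0303) and 0.96 (SE 0.21, adjusted p = 0.00723) were both under the fold cutoff. Mcm3 was 1.14, 0.933 and 0.811 FPKM for CAS, 2.33, 2.02 and 3.58 for CAS-E2, 0.97, 0.619 and 0.876 for SPI and 1.39, 2.35 and 3.59 for SPI-E2. Its log2 fold changes, 0.87 (SE 0.23, adjusted p = 0.0115) in casein-fed and 0.87 (SE 0.23, adjusted p = 0.0167) in soy-fed rats, had an adjusted p under 0.05 and also missed the fold cutoff.

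Mcm7 went the other way. It was 10.9, 10.3 and 11.6 FPKM for CAS, 6.59, 5.86 and 6.58 for CAS-E2, 8.53, 7.3 and 9.56 for SPI and 8.24, 8.02 and 8.67 for SPI-E2. Each CAS-E2 library was below each CAS library, and the log2 fold change was -0.70 (SE 0.13, adjusted p = 0.00172) in casein-fed rats, against -0.02 (SE 0.13, adjusted p = 0.931) in soy-fed rats, where the groups overlapped. Mcm2 and Mcm4 had averaged log2 fold changes of 0.08 (SE 0.10, adjusted p = 0.529) and 0.31 (SE 0.11, adjusted p = 0.0348).

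Pcna, the sliding clamp that holds DNA polymerase on its template, was 16.8, 15.5 and 15.1 FPKM for CAS, 14.4, 16.9 and 20.3 for CAS-E2, 12.2, 8.45 and 12 for SPI and 15.5, 21.3 and 17.6 for SPI-E2. Casein groups overlapped, and SPI libraries were below all SPI-E2 libraries. The difference was 0.10 (SE 0.18, adjusted p = 0.667) in casein-fed rats and 0.69 (SE 0.18, adjusted p = 0.0153) in soy-fed rats. Tyms, which makes thymidylate, stayed between 1.33 and 2.77 FPKM and stood at -0.27 (SE 0.10, adjusted p = 0.0406) in the averaged effect.

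The genes of G2 and mitosis were low without E2: 15 of the 16 found stayed under 2 FPKM in all 6 such libraries. Their levels summed to 9.13, 7.35 and 8.37 FPKM for CAS, 17.3, 29.7 and 41.9 for CAS-E2, 7.37, 5.69 and 14.6 for SPI and 14.4, 24.3 and 41.3 for SPI-E2. All CAS-E2 sums were above the CAS sums, whereas SPI-E2 1 was just below SPI 3. No member of the set was called lower in any comparison.

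Cdk1, the kinase that starts mitosis (chr20:20018044-20044030, plus strand, 8 exons), held 24.5% of this sum over the 12 libraries. It was 1.23, 0.927 and 1.12 FPKM for CAS, 4.05, 8 and 12.4 for CAS-E2, 0.535, 1.17 and 1.68 for SPI and 3.7, 6.37 and 13.1 for SPI-E2. Each E2 library was above all libraries without E2, and within both E2 groups the values spread more than 3-fold from the lowest library to the highest. Under E2 its log2 level was higher by 2.02 (SE 0.40, adjusted p = 0.00285) in casein-fed rats and 1.93 (SE 0.40, adjusted p = 0.0056) in soy-fed rats. Implied reads summed to 30, 222, 37 and 213 in CAS, CAS-E2, SPI and SPI-E2.

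Its cyclin partners were lower in level. Ccnb1, cyclin B1, was 0.21, 0.237 and 0.983 FPKM for CAS, 1.83, 2.31 and 2.99 for CAS-E2, 0.616, 0.328 and 0.968 for SPI and 1.16, 1.69 and 2.16 for SPI-E2. All E2 libraries were above all others. The log2 fold change was 1.22 (SE 0.24, adjusted p = 0.00273) in casein-fed rats, a call, and 0.70 (SE 0.24, adjusted p = 0.0454) in soy-fed rats, under the fold cutoff. Ccnb2, cyclin B2, was 0.157, 0.118 and 0.0612 FPKM for CAS, 0.535, 0.724 and 1.43 for CAS-E2, 0.307, 0.123 and 0.442 for SPI and 0.367, 1.2 and 1.19 for SPI-E2. SPI-E2 1 lay within the SPI libraries, and the log2 fold changes were 0.74 (SE 0.23, adjusted p = 0.0228) and 0.55 (SE 0.23, adjusted p = 0.091). Ccna2, cyclin A2, was 0.0891, 0.269 and 0.313 FPKM for CAS, 0.82, 1.31 and 1.86 for CAS-E2, 0.262, 0.209 and 0.685 for SPI and 0.536, 0.954 and 1.35 for SPI-E2. The casein groups did not overlap and the soy groups did, with log2 fold changes of 0.91 (SE 0.22, adjusted p = 0.0075) and 0.49 (SE 0.22, adjusted p = 0.116).

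Cks2, a small protein that binds Cdk1, was 1.46, 0.49 and 0.381 FPKM for CAS, 1.33, 4.76 and 5.88 for CAS-E2, 0.478, 0.508 and 2.5 for SPI and 1.14, 3.11 and 7.21 for SPI-E2. CAS 1, SPI 3 and the first library of both E2 groups fell in a shared range, so neither pair of groups was apart. It was called in the averaged effect alone, at 1.23 (SE 0.37, adjusted p = 0.0164). Ube2c, the enzyme that works with the anaphase-promoting complex to mark cyclins for destruction, was 0.48, 0.904 and 0.842 FPKM for CAS, 0.982, 1.95 and 3.42 for CAS-E2, 0.705, 0 and 1.48 for SPI and 1.44, 3.58 and 3.89 for SPI-E2. It was listed at 0 in SPI 2, and SPI-E2 1 was below SPI 3. It was called in soy-fed rats, at 1.23 (SE 0.37, adjusted p = 0.0296), and in the averaged effect, at 1.0 (SE 0.26, adjusted p = 0.00799), but not in casein-fed rats, at 0.77 (SE 0.37, adjusted p = 0.119).

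Prc1, which bundles microtubules at the middle of the spindle, was 0.592, 0.632 and 0.52 FPKM for CAS, 1.46, 2.25 and 1.95 for CAS-E2, 0.29, 0.193 and 0.91 for SPI and 1.09, 1.02 and 2.29 for SPI-E2. Mad2l1, a sensor of the spindle checkpoint, was 0.33, 0.913 and 0.387 FPKM for CAS, 1.01, 1.61 and 1.81 for CAS-E2, 0.431, 0.774 and 0.677 for SPI and 0.994, 1.6 and 2.38 for SPI-E2. E2 libraries of both genes were above all libraries without E2. Averaged log2 fold changes were 0.80 (SE 0.16, adjusted p = 0.00168) for Prc1 and 0.68 (SE 0.16, adjusted p = 0.00388) for Mad2l1, both under the fold cutoff. Cdc20, which activates the anaphase-promoting complex, did not follow, with an averaged change of -0.13 (SE 0.15, adjusted p = 0.484) on the log2 scale and a 95% interval of -0.45 to 0.19. Aurka, the Aurora A kinase of the spindle poles, stood at 0.25 (SE 0.12, adjusted p = 0.105) in the averaged effect. The 6 members of the set too low to test had CAS means of 0.164 to 0.434 FPKM and CAS-E2 means of 0.485 to 1.27 FPKM. Their SPI means were 0.156 to 0.409 FPKM and their SPI-E2 means 0.313 to 0.778 FPKM. Ratios of the mean with E2 to the mean without were 2.28 to 4.76 in casein-fed and 1.1 to 2.59 in soy-fed rats. The ratio was smaller in soy-fed rats for each of the 6, a difference that was not tested. Few reads lie under these ratios: implied reads of a gene summed to 8 to 28 in CAS and 14 to 44 in SPI. Of them Plk1, the Polo-like kinase of mitotic entry, was highest in CAS-E2, and Bub1, a spindle checkpoint kinase, was lowest.

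The genes of S phase and mitosis were also read against promoter sequence, because each set is known to be switched on through its own elements. RefSeq gave promoters, from 250 bases before to 50 after the start, on the GRCr8 build for 28 of the 38 genes. They were 7 G1 regulators, 8 S phase genes and 13 genes of G2 and mitosis. On both strands, 3 elements were searched: the CHR element of late cell cycle genes (TTTGAA or TTTAAA, the latter its own reverse complement), the NF-Y box (CCAAT) and the E2F site (TTTCCCGC, TTTGGCGC, TTTGCCGC or TTTCGCGC). A CHR was found in 13 of 13 promoters of G2 and mitosis, 1 of 8 of S phase and 3 of 7 of G1 regulators, against 28.2% of the 33469 promoters of the table. An E2F site was found in 6 of 8 promoters of S phase, 1 of 13 of G2 and mitosis and 0 of 7 of G1 regulators, against 2.14% of all. An NF-Y box was found in 10 of 13, 6 of 8 and 2 of 7, against 37.5% of all. The estrogen response element, written as GGTCA, 3 bases of any kind and TGACC, was in 0 of the 28 and in 0.0269% of all.

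The 160 bases before the start are printed for Cdk1 and Ccnb1, as called mitosis genes, for Mcm6 and Mcm5, as the called S phase members with a promoter in the table, and for Cdkn1a, the member with the largest change on the log2(FPKM + 1) scale. Capitals mark every match to the 3 elements, and all are written 5′ to 3′ on the strand of the gene. On GRCr8 they lie at chr20:19265133-19265292 (plus strand), chr2:33655226-33655385 (minus strand), chr13:42404353-42404512 (minus strand), chr19:13488653-13488812 (plus strand) and chr20:7150772-7150931 (plus strand), in the order printed.
Cdk1: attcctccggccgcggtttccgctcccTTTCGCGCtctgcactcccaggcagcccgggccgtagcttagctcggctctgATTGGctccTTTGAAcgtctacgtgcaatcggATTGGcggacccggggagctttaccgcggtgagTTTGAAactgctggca
Ccnb1: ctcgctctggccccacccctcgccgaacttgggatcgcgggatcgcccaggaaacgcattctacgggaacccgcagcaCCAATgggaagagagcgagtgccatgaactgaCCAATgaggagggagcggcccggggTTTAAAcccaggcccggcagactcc
Mcm6: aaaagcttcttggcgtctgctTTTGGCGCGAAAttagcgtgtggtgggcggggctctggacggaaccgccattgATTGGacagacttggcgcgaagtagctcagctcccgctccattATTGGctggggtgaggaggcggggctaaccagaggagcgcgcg
Mcm5: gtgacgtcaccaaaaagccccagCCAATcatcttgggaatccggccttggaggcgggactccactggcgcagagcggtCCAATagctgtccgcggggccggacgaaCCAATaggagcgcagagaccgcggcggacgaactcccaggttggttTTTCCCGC
Cdkn1a: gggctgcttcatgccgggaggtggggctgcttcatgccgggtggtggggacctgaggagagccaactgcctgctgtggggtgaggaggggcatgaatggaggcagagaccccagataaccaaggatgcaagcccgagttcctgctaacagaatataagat
Cdk1 shows an E2F site, 2 NF-Y boxes and 2 CHR elements, the second of which begins 16 bases before the start. Ccnb1 shows 2 NF-Y boxes and 1 CHR beginning 25 bases before the start. In Mcm6 the capitals of the E2F run cover 2 sites that overlap on opposite strands. Mcm5 has 3 NF-Y boxes and an E2F site that ends just before the start. The Cdkn1a window holds none of these letters. A match is a description of the sequence and no evidence of binding.

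**Figure D4:**
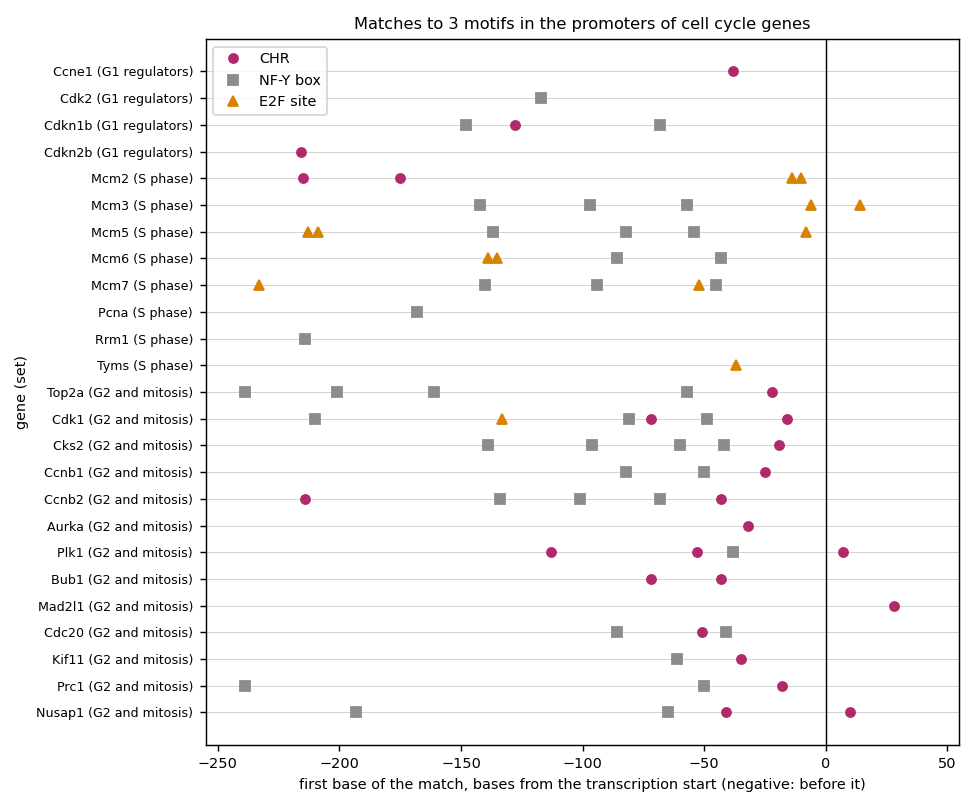
Each mark is the first base of a match to 1 of 3 elements, on the horizontal axis in bases from the transcription start, with 1 row for each of the 25 genes that had a match. In each of the 13 genes of G2 and mitosis a CHR lies within 75 bases of the start, while E2F sites are found in 6 genes of S phase and in Cdk1.

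In G2 and mitosis the nearest CHR lay 7 to 51 bases from the start in the 13 promoters, and 11.1% of all promoters of the table held a CHR within 75 bases, a window set after these positions were seen. Cdc20 and Aurka, which were not called, had the CHR too. Mcm2, Mcm3 and Mcm7, which were called in no comparison, carried E2F sites as Mcm5 and Mcm6 did. So the elements were shared by members that were called and members that were not.

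Soy protein alone gave no call among the 31 tested members. In SPI against CAS, 0 were called higher and 0 lower (0% and 0.0195% of all genes tested). With limma-voom on the implied reads 0 were called. At an unadjusted p under 0.05, 0 members were higher and 3 lower, against 83 and 1236 of the 10279 genes tested. The 3 were Pcna, at -0.51 (SE 0.18, adjusted p = 0.317), Mcm7, at -0.34 (SE 0.13, adjusted p = 0.335), and Cdk2, at -0.30 (SE 0.13, adjusted p = 0.384). The SPI libraries were all below the CAS libraries for 7 members and all above for 0, against 30.8% and 1.97% of all genes. The median member was at -0.13 and the median of all genes at -0.16. When the libraries were rescaled by their median ratio, the medians were -0.01 and -0.01, and Cdk1, Cdkn1c and Mcm4 changed sign. The share of reads on annotated transcripts was 22.0% to 24.6% in SPI and 25.0% to 27.5% in CAS, and its part in these values was not tested.

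The intervals show what size of diet effect the data allow. For SPI against CAS the 95% interval was -1.05 to 0.29 for Cdkn1a, -0.55 to 0.18 for Ccnd1, -0.25 to 0.59 for Rrm2 and -0.88 to 0.86 for Cdk1, all on the log2 scale. These 4 include 0, while the intervals of Pcna (-0.90 to -0.13), Mcm7 (-0.61 to -0.07) and Cdk2 (-0.59 to -0.0033), not adjusted for the number of genes, lay below 0. The lower bounds under E2 in casein-fed rats were 1.81 for Cdkn1a, 1.21 for Rrm2 and 1.15 for Cdk1.

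Under E2 the diets also gave no call among the members. In SPI-E2 against CAS-E2, 0 were higher and 0 lower (0.00973% and 0% of all genes), and 0 were called with limma-voom. At an unadjusted p under 0.05, 1 member was higher and 0 lower, against 366 and 235 of the 10279 genes tested. That gene was Mcm7, at 0.34 (SE 0.13, adjusted p = 0.738). With libraries of the same number taken as pairs, 0 members were called as well. In all 3 pairs SPI-E2 was below CAS-E2 for 5 of the 31 tested members and above for 5 (10.5% and 14.8% of all genes). Those below were Ccne2, Cdkn2b, Rrm2, Ccna2 and Ccnb1, and those above Cdk4, Mcm5, Mcm7, Rrm1 and Ube2c. Among the 16 genes of G2 and mitosis found, 6 were below in all pairs and 1 above, and the value of Ccnb1 with the pairs as a block was -0.34 (SE 0.16, adjusted p = 0.784). The SPI-E2 libraries were all above those of CAS-E2 for 2 members and all below for 1 (4.47% and 2.53% of all). The intervals were -0.82 to 0.52 for Cdkn1a, -0.20 to 0.54 for Ccnd1 and -0.98 to 0.76 for Cdk1, so the interval of Cdk1 reaches to about 2-fold lower in SPI-E2.

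Whether diet altered the E2 effect was tested as an interaction, the E2 effect in soy-fed rats minus that in casein-fed rats. It called 0 members higher and 0 lower (0% and 0% of all genes), and 0 with limma-voom. At an unadjusted p under 0.05, 5 members were higher and 0 lower, against 1362 and 168 of the 10279 genes tested. The 5 members were Mcm7, Rrm1, Mcm2, Cdk2 and Pcna. Mcm7 had the smallest p, with a difference of 0.68 (SE 0.18, unadjusted p = 0.00236, adjusted p = 0.182). After median-ratio scaling it was 0.47 (SE 0.20, adjusted p = 0.459). The median interaction over all genes was 0.21 as deposited and 0.01 after that scaling, so these values stand against a shift of the same sign. Calls made in one diet alone, such as Ccnd1, Ccnb1 or Ube2c, therefore were not shown to differ between diets.

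SPI-E2 was also compared with CAS, as both treatments against neither. These values share libraries with the comparisons above. Here 5 members were called higher (6.84% of all) and 2 lower (3.89% of all). Cdkn1a, at 2.32 (SE 0.31, adjusted p = 0.000595), Rrm2, at 1.42 (SE 0.19, adjusted p = 0.000713), and Cdk1, at 1.92 (SE 0.40, adjusted p = 0.00592), were again highest, followed by Ube2c, at 1.13 (SE 0.37, adjusted p = 0.0393), and Mcm5, at 1.08 (SE 0.21, adjusted p = 0.00446). Cdkn1c was at -1.24 (SE 0.32, adjusted p = 0.016) and Cdkn1b at -1.14 (SE 0.23, adjusted p = 0.005).

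The calls of Cdkn1a, Cdk1 and Rrm2 held in each comparison that made them and under each of the alternatives tried, and so did those of Cdkn1b, Cdkn1c, Cdkn2b and Ccnb1 in CAS-E2 against CAS and of Mcm6 in SPI-E2 against SPI. Ccnd2 in casein-fed rats lost its call with median-ratio scaling, with array weights, and without CAS 1, CAS 3 or CAS-E2 3, each of these libraries leaving 2 members lower when left out. With these libraries left out, 6.23%, 6.38% and 5.37% of all genes were lower. In soy-fed rats 4 members were higher and 0 lower without SPI 2, SPI-E2 2 or SPI-E2 3, and 0 were lower without SPI 1. Without SPI 2, SPI-E2 2 or SPI-E2 3, 7.24%, 5.93% and 6.89% of all genes were higher and 1.1%, 0.645% and 0.606% lower. Without SPI 1, 1.23% of all genes were lower. Without SPI-E2 1, the library that stood apart, 10 members were higher and 2 lower (12.5% and 4.45% of all genes). In SPI-E2 against CAS the higher and lower counts were 10 and 3 when SPI-E2 1 was left out, 3 and 1 for SPI-E2 2, and 3 and 0 for SPI-E2 3. The shares of all genes were 10.1% and 7.29%, 4.93% and 2.89%, and 5.22% and 1.68%, in that order. For the averaged effect 4 members were higher without SPI-E2 2 or SPI-E2 3 (6.83% and 7.35% of all genes). Without SPI-E2 3, 1 member was lower (2.53% of all genes). Ube2c in particular lost its call under 6 alternatives in soy-fed rats, 10 in SPI-E2 against CAS and 6 in the averaged effect.

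The number of calls depended on how low values were treated, and not alike in the diets. With a pseudocount of 0.1 in place of 1, 14 members were called higher in casein-fed rats (10.1% of all genes) and 10 in soy-fed rats (10.9%). With limma-voom on implied reads 12 were called higher in casein-fed rats (8.69% of all genes) and 7 in soy-fed rats (7.18%), the latter as many as in the main model. The 12 were Ccna2, Ccnb1, Ccnb2, Cdk1, Cdkn1a, Cdkn2b, E2f1, Mcm3, Mcm5, Mcm6, Prc1 and Rrm2, all of which were above 0 in the main model as well. In the averaged effect both alternatives called 14 higher, against 10.5% and 8.16% of all genes. Of the 12, 8 are among the 9 that reached 1 FPKM in no library without E2, and Mcm3 also passed the filter only with the help of E2 libraries.

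The libraries of a group differed in the level of the dividing set. Among the 26 genes of S phase and mitosis found, CAS-E2 3 was the highest library of its group for 20 and SPI-E2 3 for 20, while SPI-E2 1 was the lowest for 19 and CAS-E2 1 for 18. Over all genes tested, CAS-E2 3 was highest for 30.1% and SPI-E2 3 for 17.8%, and SPI-E2 1 was lowest for 41.8% and CAS-E2 1 for 35.1%. In G2 and mitosis alone, SPI 3 was the highest of its group for 13 of 16 genes, and over all genes tested for 26.3%. No label says what sets these pools apart.

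Markers of cell types moved under E2 together with these genes. The 9 epithelium markers, keratins and junction proteins among them, summed to 246, 217 and 238 FPKM for CAS, 956, 1194 and 1652 for CAS-E2, 173, 135 and 149 for SPI and 561, 2006 and 1982 for SPI-E2. Of the 9, 7 were called higher in casein-fed and 9 in soy-fed rats, and none was at 0. The 8 stromal fibroblast markers summed to 729 to 914 FPKM in CAS and 757 to 905 in SPI, against 353 to 816 in CAS-E2 and 279 to 699 in SPI-E2, with 2 and 5 called lower. The 5 endothelium markers summed to 72 to 87.8 and 63.5 to 78.8 without E2 and to 35.2 to 49.8 and 40.0 to 55.2 with it, with 3 and 1 called lower. The lymphoid and myeloid markers, of which 8 of 13 were tested, had 5 and 1 called higher, with sums of 149 to 211, 421 to 684, 206 to 226 and 227 to 407 FPKM in CAS, CAS-E2, SPI and SPI-E2. None of the 7 smooth muscle markers and none of the 7 liver markers was called. Of 7 skeletal muscle markers 5 were tested, and Tnnc2 and Tnni2 were called lower in both diets, with sums of the list of 44.2 to 77.9 FPKM in CAS, 25.6 to 56.5 in CAS-E2, 51.5 to 72.3 in SPI and 32 to 57.7 in SPI-E2. Of 8 fat cell markers Adipoq was called higher in casein-fed rats, with overlapping sums of 83.9 to 168, 111 to 611, 115 to 659.7 and 209 to 379 FPKM in the same order. The list did not move as one. In the averaged effect Adipoq was called higher, at 2.11 (SE 0.44, adjusted p = 0.00231), and Lpl lower, at -1.53 (SE 0.53, adjusted p = 0.0298). The list median was -0.04 in casein-fed and -1.48 in soy-fed rats. The part of these shifts in the levels of the cell cycle genes was not tested.

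**Figure D5:**
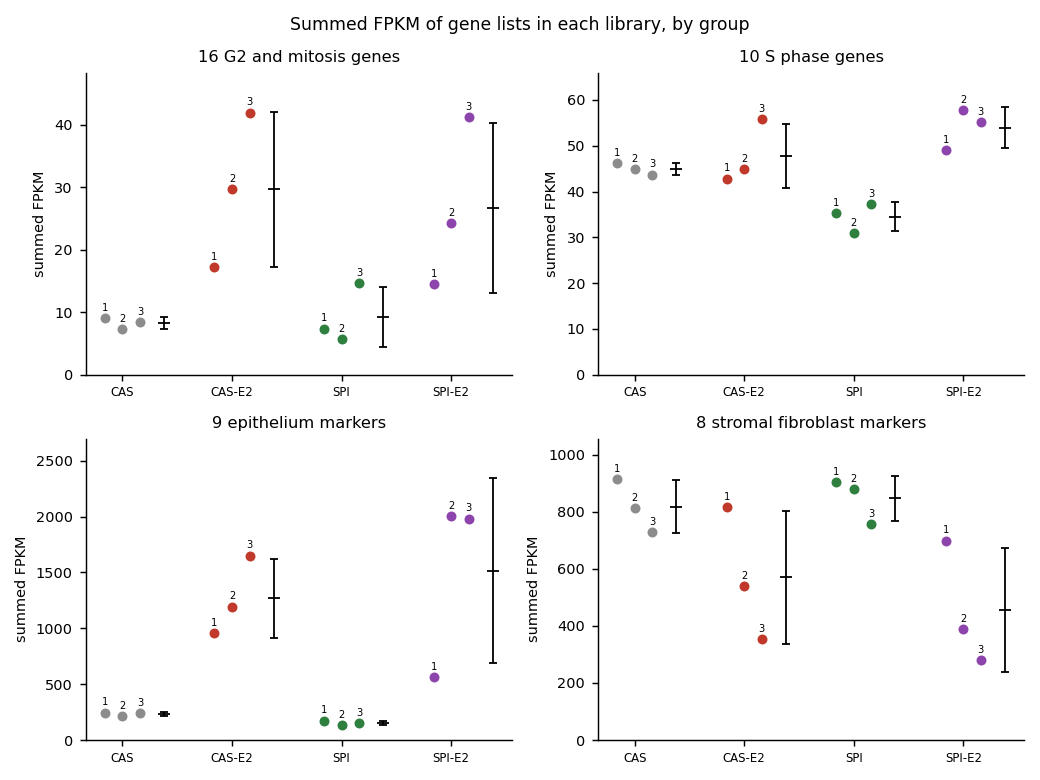
Points are the summed FPKM of a gene list in each library, numbered by replicate, and black bars are the group mean with the SD. G2 and mitosis genes and epithelium markers are higher in all CAS-E2 libraries than in all CAS libraries, stromal markers are lowest within the E2 groups in CAS-E2 3 and SPI-E2 3, and SPI-E2 1 is the nearest of the SPI-E2 libraries to SPI in all 4 panels.

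Other genes of the cycle were read from fixed lists. With the fold cutoff, all 3 lists held a smaller share of calls in the averaged effect than all genes tested. Of all genes tested, 7.76% were higher and 3.37% lower, on a scale that shrinks changes at a low level. Of 20 tested genes of G1 and rest, 1 was called higher and 0 lower. It was Mycn, a Myc factor that drives growth, with means of 0.535 ± 0.069 FPKM (SD, n = 3) for CAS, 8.85 ± 1.79 for CAS-E2, 1.54 ± 0.798 for SPI and 8 ± 3.4 for SPI-E2, and it changed by 2.23 (SE 0.21, adjusted p = 1.64e-05) on the log2 scale. Of 39 tested genes of DNA replication, 1 was higher and 0 lower. It was Cdc6, which loads the Mcm helicase on DNA, with means of 0.0854 ± 0.074, 2.2 ± 0.819, 0.155 ± 0.0437 and 2.59 ± 1.48 FPKM and a change of 1.54 (SE 0.19, adjusted p = 9.58e-05) on the log2 scale. Of 25 tested genes of mitosis, 1 was higher and 0 lower. It was Kif23, a motor protein of cell separation, at 1.11 (SE 0.19, adjusted p = 0.000617). Cdc6 and Kif23 reached 1 FPKM in no library without E2, as did 3 of the 39 and 9 of the 25 in all, so that they were tested only through their E2 libraries and had to differ. In single diets Rpa3, of the single-strand binding complex, was higher in casein-fed rats, at 1.03 (SE 0.25, adjusted p = 0.00829), and Gmnn, or geminin, which blocks a second round of copying, in soy-fed rats, at 1.17 (SE 0.23, adjusted p = 0.00477), the latter also tested only through its E2 libraries. The list medians of the averaged effect were 0.16, 0.04 and 0.21, against 0.02 over all genes. By adjusted p alone the lists had 5, 5 and 8 genes higher and 4, 6 and 1 lower (27.4% and 23% of all genes). Of 23, 52 and 59 genes found, 20, 39 and 25 were tested.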

How the data were processed

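Uterine poly-A RNA of 12 pools was sequenced in 36-base single reads. The authors aligned the reads to the rn4 rat genome with TopHat2 2.0.9 and Bowtie2 2.1.0 and estimated transcript levels with Cufflinks 2.1.1. CASAVA 1.7 stands in the submitters' processing notes as well. The values deposited for each transcript are FPKM, which the authors' program scales to the library's mapped reads. How reads shared by near-identical genes or antisense transcripts were assigned is not given in the sources used here.

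Transcript FPKM were added up within each gene, and 37 of the 38 members had 1 transcript. Samples were grouped by the labels. The 10279 genes that reached 1 FPKM in 3 or more libraries were fitted with limma 3.58.1 in R 4.3.3 on log2(FPKM + 1), with a variance trend, and p was adjusted over all of them by Benjamini-Hochberg. Cuffdiff, which the authors used, needs the reads and was not repeated. Mapped and implied reads were derived from the deposited coverage, FPKM and transcript length, and are estimates. Read counts of short transcripts are overstated. The test was checked on simulated data. Motif searches used Python 3.11.15 and pandas 2.3.3, and figures matplotlib 3.10.9.

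The members and the gene lists were chosen with earlier results of these data known. Genes described in every library are, in each set, the 6 with the smallest p for E2 averaged over diets and others called in any comparison, with Cdk4, Cdk2, Ccnd1 and Cdkn1a, while from the other lists up to 4 called genes are named. Further genes were named after their values were seen. The pseudocount, filter, scaling, model, cutoff and transcript choice were varied, replicate numbers were used as a block, and each library was left out in turn. The labels give the replicate numbers without saying what they mark. Between groups, libraries with the same number deviated from their group means alike in SPI-E2 and CAS-E2 (correlations 0.12 to 0.34). On that basis alone they were taken as pairs. In other pairs of groups the correlations were -0.26 to 0.15, a range that holds the 0.12 as well. Libraries with different numbers were not compared in this way.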

Additional observations from a re-analysis of the deposited data

How the results depend on the processing

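No member changed sign in a comparison where it was called. Members that were not called did, among them, with median-ratio scaling, Aurka in SPI-E2 against SPI, Cdk1, Cdkn1c and Mcm4 in SPI against CAS, Ccnb2 in SPI-E2 against CAS-E2 and Cdkn2c in the interaction. With the replicate block, which treats libraries of the same number as paired, 6 members were higher in CAS-E2 against CAS in place of 5 (8% of all genes). Cks2 was added, and no other count of members changed. The count of members called higher in CAS-E2 against CAS was 14 with a pseudocount of 0.1, 11 with 0.5, 12 with limma-voom, 12 with limma-voom without SPI-E2 1 (added after seeing the data) and 14 by adjusted p alone, which called 6 lower. The shares of all genes were 10.1%, 9.21%, 8.69%, 9.05% and 17.1% in the same order, with 22% lower by adjusted p alone. In SPI-E2 against SPI the higher count was 15 by adjusted p alone (21.1% of all genes) and 4 to 10 when single libraries were left out (5.93% to 12.5%). The lower count there was 0 with only these groups fitted, 2 with array weights, limma-voom or adjusted p alone, 3 with limma-voom without SPI-E2 1, and 0 to 2 when single libraries were left out. All genes had 0.759%, then 3.28%, 10.8% and 6.57%, then 17%, and 0.606% to 4.45% lower, in that order. In SPI-E2 against CAS the higher count was 12 and 9 with the smaller pseudocounts, 8 with array weights, 9 and 12 with limma-voom, 13 by adjusted p alone and 3 to 10 with libraries left out. Shares of all genes were 8.71% and 7.93%, 8.96%, 7.37% and 9.48%, 14.4%, and 4.93% to 10.1%. The lower count was 3 with array weights, limma-voom or adjusted p alone, and 0 to 3 with libraries left out. Shares of all genes lower were 6.41%, 11.7% and 14.9%, and 1.68% to 7.29%. For E2 averaged over diets the higher count was 14 and 12 with the smaller pseudocounts, 14 with either limma-voom fit, 18 by adjusted p alone and 4 to 8 with libraries left out. All genes had 10.5% and 9.3%, 8.16% and 9.17%, 27.4%, and 6.83% to 9.35% higher. The lower count there was 3 with either limma-voom fit, 6 by adjusted p alone and 1 to 2 with libraries left out. All genes had 13.1% and 15.9%, 23%, and 2.53% to 4.91% lower. Limma-voom, on reads of annotated transcripts, set the median of all genes at -0.20 for the averaged effect against 0.02 in the main model. The diet comparisons and the interaction called 0 members under all alternatives. Depth limits the low members most: Rrm2 had 10 implied reads and Ccnb2 had 4 over the 3 CAS libraries.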
